A study of Mus musculus with 8 samples.

Results

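The 7 large mouse genes, Aff3, Dlc1, Etl4, Nav1, Dgki, Pde1c and Ptprg, were examined for where accessible regions lie along their bodies and how 4 melanoma cell lines differed in them. They were chosen by measured accessibility: a large share of the regions inside each gene was higher in both Stat3 knockout lines than in both wild-type lines. All 367 regions that lay with both ends inside these 7 genes were taken, of 148664 regions in the authors' count table, and 355 of the 367 had enough counts to be tested. A region was called knockout-high when lines 112 and 113 were each higher than lines 119 and 73 in all 4 pairwise tests, at an adjusted p under 0.05 in every one (edgeR's quasi-likelihood test, Benjamini-Hochberg over all tested regions). Regions lower in every such test were called knockout-low. By that definition 111 of the 355 tested regions (31.3%) were knockout-high and 4 were knockout-low, against 7.64% and 7.41% of all 140329 tested regions. The genes were selected on these values, which are therefore given as a description.

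ATAC-seq reads out open chromatin: the Tn5 transposase inserts sequencing adapters where DNA is not packed into nucleosomes, so promoters and enhancers collect many reads. Enhancers of a large gene often lie in its introns, far from its start. STAT3 is a transcription factor switched on by cytokine and growth factor receptors. The proteins of the 7 genes have different roles. Aff3 is a nuclear protein of the AF4/FMR2 family, whose members act in transcription elongation. Dlc1 is known as a tumour suppressor. Nav1 is a neuron navigator protein that binds microtubules, and Etl4, also called Skt, is needed for intervertebral disc development. Dgki is a diacylglycerol kinase, Pde1c is a calmodulin-dependent phosphodiesterase of cyclic nucleotides, and Ptprg is a receptor tyrosine phosphatase.

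The data were 8 ATAC-seq libraries, 2 for each of 4 cell lines that were established from the lymph nodes of mice in which skin melanoma appeared at about 25 to 30 weeks of age. Lines 112 and 113 carried the Stat3 knockout (Stat3Δ in the protocol) and lines 119 and 73 were the wild type (Stat3fl in the protocol), so the genotype rested on 2 lines each. The protocol calls the lines pools and another label calls them clones; the Cre driver and other alleles are not given in the sources used here. Each reaction used 50000 cells, and the libraries were labelled as biological replicates, with nothing that says whether they came from separate cultures. Library totals ran from 2697546 counts in line 112 replicate 2 to 7464336 in line 119 replicate 1. Values are CPM, counts scaled to a common library size with TMM factors, and positions are those of mm10 (GRCm38), counted from 1.

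Checks of the whole series bear on every result here. All 7 melanocyte lineage genes had an accessible region at a gene end, and 5 of the 7 were higher in both knockout lines than in both wild-type lines. Their summed level was 142 and 236 CPM in lines 112 and 113 and 79.5 and 122 CPM in lines 119 and 73. The end regions of Dct and Mlana, a pigment enzyme and a melanosome protein, had 0.256 to 3.79 CPM in the wild-type lines. Mitf and Pmel went another way and were highest in line 73, at 39.1 and 74.6 CPM. Mitf had 24.8 and 36.1 CPM in lines 112 and 113 and 18.8 CPM in line 119. Pmel had 39.1, 63.6 and 32.7 CPM in the same lines. The 3 fibroblast genes summed to 29.0 and 28.2 CPM in the knockout lines and 39.1 and 116 CPM in the wild-type lines. Of these, 2 were lower in both knockout lines than in both wild-type lines. The exception, Col1a2, had 3.55 and 1.41 CPM in lines 112 and 113, 0.596 CPM in line 119 and 32.2 CPM in line 73. The 3 of 4 leukocyte genes with a region summed to 11.2 to 14.2 CPM in all lines and the 2 epithelial genes to 4.53 to 10.4 CPM. The leukocyte gene Ptprc and the endothelial genes Pecam1 and Cdh5 had no region at a gene end. The end regions of Ddx3y, Eif2s3y and Uty on chromosome Y had 0 counts in all knockout libraries and 8.57 to 17.5 CPM in the wild-type lines, and the Stat3 end region was open in every line at 18.2 to 38.0 CPM, which checks no deletion. Titles include an unexplained p number: 18 (line 112), 44 (line 113), 14 (line 119) and 68 (line 73). It cannot be told apart from the line in either comparison within a genotype. With 2 lines per genotype, genotype, sex chromosome content and line cannot be told apart, and the part of pigment cell state in these regions was not tested.

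Of the RefSeq start sites of the 7 genes, 4 were covered by an accessible region, and the 250 bases before each are shown because these regions are where the genes' own starts were read. The promoter table holds 11 start sites of 6 of the genes, and for Dlc1 it holds none. The sequences are from RefSeq (GRCm38.p6), 5′ to 3′ in the gene's direction, with each CG dinucleotide in capitals.

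Aff3, chr1:38627245-38627494, minus strand: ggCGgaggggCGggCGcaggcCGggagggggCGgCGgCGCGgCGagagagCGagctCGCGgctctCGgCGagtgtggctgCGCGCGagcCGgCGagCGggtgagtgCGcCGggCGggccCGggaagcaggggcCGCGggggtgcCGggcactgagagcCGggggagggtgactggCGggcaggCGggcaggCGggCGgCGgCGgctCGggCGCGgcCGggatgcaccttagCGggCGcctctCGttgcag

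Etl4, chr2:20519263-20519512, plus strand: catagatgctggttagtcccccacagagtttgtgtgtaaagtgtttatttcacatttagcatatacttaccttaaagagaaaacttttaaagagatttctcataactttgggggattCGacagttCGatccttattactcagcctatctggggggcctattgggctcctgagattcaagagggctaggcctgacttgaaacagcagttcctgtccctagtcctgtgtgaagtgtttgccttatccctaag

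Dgki, chr6:37299977-37300226, minus strand: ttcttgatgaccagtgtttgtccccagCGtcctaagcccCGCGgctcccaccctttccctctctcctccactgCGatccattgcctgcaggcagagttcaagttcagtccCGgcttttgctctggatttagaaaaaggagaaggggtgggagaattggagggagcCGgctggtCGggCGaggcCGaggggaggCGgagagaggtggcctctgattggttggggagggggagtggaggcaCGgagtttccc

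Pde1c, chr6:56362393-56362642, minus strand: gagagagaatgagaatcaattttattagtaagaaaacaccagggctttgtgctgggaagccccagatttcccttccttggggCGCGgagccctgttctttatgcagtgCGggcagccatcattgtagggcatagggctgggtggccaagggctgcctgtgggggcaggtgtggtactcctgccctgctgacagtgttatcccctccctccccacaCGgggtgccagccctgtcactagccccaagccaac

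Among the promoters shown, that of Aff3 stood apart in composition, with 41 CG dinucleotides and 82.0% G or C. Of those not shown, the first Ptprg promoter had 31 CG dinucleotides (68.4% G or C) and that of Nav1 18 (62.4%). The Dgki promoter had 11 CG dinucleotides (60.8% G or C), that of Pde1c 4 (58.0%) and that of the third Etl4 start 2 (43.2%). Over all 32851 promoters of the table the median was 6 CG dinucleotides and 52.4% G or C, and 1.09% had at least as many as Aff3. Searches on both strands for TGANTCA (AP-1), CACGTG and CATGTG (E-box and M-box, bound by MITF), TTCNNNGAA (STAT), TTGCNNAA (C/EBP), ACAAAG and ACAATG (SOX) found none in the Aff3, Etl4 and Dgki sequences. The Pde1c sequence held 1 match each to ACAAAG and ACAATG, which 16.5% and 10.7% of all promoters hold. The shares of all promoters with the other motifs were 6.75% (AP-1), 6.02% (E-box), 12.3% (M-box), 7.02% (STAT) and 9.56% (C/EBP). Promoters not shown held further matches. That of the Pde1c start at 283 kb held 1 AP-1, 1 STAT and 2 ACAAAG matches. That of the other Pde1c start at 290 kb held 2 C/EBP matches and 1 to ACAATG. The second Etl4 start had 1 E-box match, and both Ptprg starts had 1 M-box match. These are letter matches in a 250-base window and no measurement of binding.

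At the starts themselves, 3 of these 4 regions were knockout-high. The Aff3 start region (chr1:38626406-38627772) had 34.0 and 33.5 CPM in line 112, 41.2 and 44.0 CPM in line 113, 14.9 and 14.0 CPM in line 119, and 8.45 and 7.22 CPM in line 73. The region at the third Etl4 start (chr2:20519339-20520497) had 12.6 and 9.54 CPM in line 112, 28.3 and 20.8 CPM in line 113, and 3.33 to 4.05 CPM in the 4 wild-type libraries. In both regions line 113 was above line 112. Their separation from the wild-type lines follows from the knockout-high call and is a description. The lines differed in the Etl4 region (log2 difference, line 112 minus line 113, -1.14 with a standard error of 0.26, adjusted p 0.000716), and in the Aff3 region the test did not pass (-0.34, standard error 0.19, adjusted p 0.194). The Dgki start region (chr6:37299426-37300173) was weaker. It had 6.75 and 13.2 CPM in line 112 and 9.51 and 7.5 CPM in line 113. The wild-type values were 5.04 and 4.9 CPM in line 119 and 2.82 and 3.06 CPM in line 73. The Pde1c start region (chr6:56361875-56362761), which was not knockout-high, had 7.45 and 12.6 CPM in line 112, 4.76 and 4.84 CPM in line 113, 5.17 and 5.57 CPM in line 119 and 2.82 and 4.72 CPM in line 73, and was higher in line 112 than in line 113 (1.03, standard error 0.33, adjusted p 0.0181). The starts of Nav1 and Ptprg had no region over them: the nearest region lay 1141 bp from the Nav1 start and 7087 and 27315 bp from the 2 Ptprg starts. These start regions, other than those that the naming rule also picked, were chosen after their values were seen.

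Each gene held 13 to 19 knockout-high regions among 48 to 57 tested. The counts were 19 of 51 in Aff3, 18 of 48 in Dlc1, 18 of 51 in Etl4, 14 of 48 in Nav1, 14 of 50 in Dgki, 15 of 57 in Pde1c and 13 of 50 in Ptprg. Requiring a log2 difference of at least 1 in all 4 pairs left 98 of the 111, and 6.61% of all tested regions. The 1 knockout-low region of each of Dlc1, Etl4, Nav1 and Pde1c was the exception to the common direction. The one in Dlc1 (chr8:36744321-36745219) had 0.484 to 2.56 CPM in the knockout libraries and 11.5 to 16.4 CPM in the wild-type libraries. It lay within a stretch with no knockout-high region from 133 to 192 kb. Among the 1971 protein-coding genes with at least 10 tested internal regions, the median share of knockout-high regions was 7.14% and the upper quartile 13.3%, and 668 genes had none. Of 109 genes with at least 45 tested regions, 10 reached a share of 25%: the 7 here with Ptprd (68.9%), Sox5 (35.6%) and Mitf (26.7%). Ptprg, at 26.0%, was the lowest of the 7, and the next genes below 25% were Fhit (23.5%) and Exoc4 (22.9%).

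**Figure D1:**
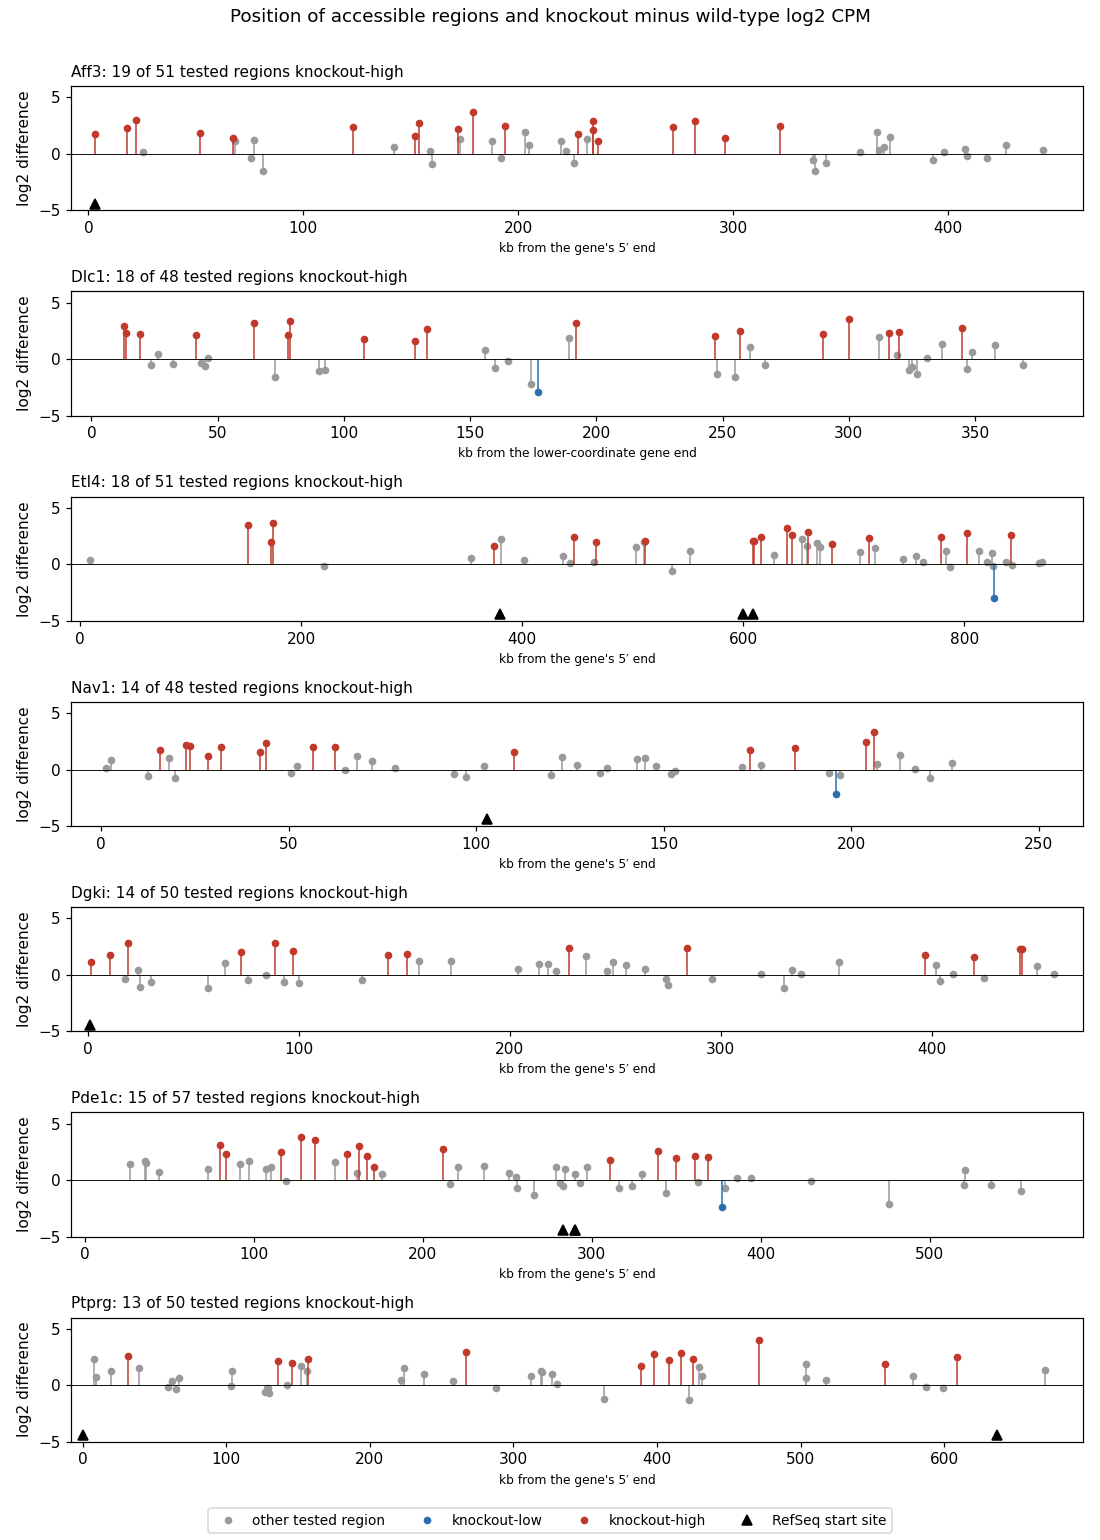
Every tested region of the 7 genes by its distance in kb from the gene's 5′ end (from the lower-coordinate end in Dlc1; horizontal axis), with the knockout minus wild-type difference of mean log2 CPM (vertical axis). Knockout-high regions (red) lie along each gene with empty stretches. Aff3 has a run of 7 between 235 and 322 kb and Nav1 has 9 of its 14 up to 62.3 kb. In Pde1c all lie from 80.2 to 369 kb. Black triangles are RefSeq start sites.

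The knockout-high regions were distributed, not gathered at the gene starts. By their midpoints 0 of the 111 lay within 1 kb of an end of a protein-coding gene, against 4.37% of the 10613 knockout-high regions elsewhere and 11.5% of all tested regions. By its edge the Dgki start region, with its midpoint at 1.16 kb, did come within 1 kb of the gene's end. The knockout-high start regions of Aff3, Etl4 and Dgki covered RefSeq start sites, which in Aff3 and Etl4 lie further inside the gene. Regions inside such large genes lie far from gene ends by construction (median distance 133 kb for the knockout-high and 112 kb for the other tested regions of the 7 genes). In the 6 genes whose strand is known from the promoter table, 50 of the 93 knockout-high regions lay in the 5′ 50% of the gene body, which held 157 of the 307 tested regions. The pooled count hides differences between genes. Etl4 had 5 knockout-high of 12 tested in its 5′ 50% and 13 of 39 in the rest. Its counts thus follow where its tested regions lie. By the same split Nav1 had 10 of 26 and 4 of 22, and Aff3 11 of 27 and 8 of 24. Dgki had 9 of 26 and 5 of 24, and Pde1c 10 of 35 and 5 of 22. Only Ptprg had the larger share in the rest, with 5 of 31 and 8 of 19. Neighbouring knockout-high regions were a median of 7.04 kb apart in Nav1, 11.0 kb in Pde1c, 14.5 kb in Aff3, 16.4 kb in Dlc1, 22.4 kb in Dgki, 23.7 kb in Etl4 and 28.2 kb in Ptprg, and the median gap between any tested regions was 3.72 to 8.38 kb.

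Adjacency was common. Of the 111 regions, 63 (56.8%) stood in 23 runs of at least 2 consecutive tested regions that were all knockout-high, whereas 33.0% of the 10724 knockout-high regions of the whole table had a knockout-high neighbour. The genes were chosen for many such regions, so a higher share of neighbours follows from the choice. The longest runs were 7 regions in Aff3 (235 to 322 kb), 6 in Nav1 (22.7 to 44.0 kb) and 4 in Ptprg (389 to 417 kb), and in Dgki no run passed 2. In the 250 kb on either side of the 7 genes 48 of 332 tested regions were knockout-high (14.5%), from 8.0% around Etl4 to 17.3% around Dgki. These flanking shares lay between those of the genes and the 7.64% of all tested regions.

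Aff3 (chr1:38175393-38630178, minus strand, 455 kb) held its knockout-high regions from 3.09 to 322 kb, and beyond that point, to its end at 455 kb, it held none. Besides the start region, the region at 179 kb (chr1:38450545-38451168) had 28.9 and 22.8 CPM in line 112, 31.9 and 32.9 CPM in line 113, 2.71 and 1.69 CPM in line 119 and 1.28 and 1.67 CPM in line 73. This was among the clearest separations in the 7 genes, with a fitted log2 difference over the 4 line sums of 3.93 (standard error 0.83, a description since this contrast chose the gene). The region at 228 kb (chr1:38401745-38402316) showed a graded order, with 30.0 and 20.0 CPM in line 112, 28.1 and 24.4 CPM in line 113, 14.5 and 14.9 CPM in line 119 and 2.3 and 4.72 CPM in line 73. It was no longer knockout-high without line 112 replicate 1 or without either replicate of line 119. Its neighbour at 226 kb (chr1:38403597-38404323) was the strongest region that was not knockout-high and was open mainly in line 119, at 22.2 and 24.8 CPM against 4.61 to 8.0 CPM in the other 6 libraries. Lines 112 and 113 differed in 8 of 51 regions of Aff3, 5 higher in line 112 and 3 in line 113, and 2 of the 8 were knockout-high. The largest difference towards line 112 was at 398 kb (chr1:38232103-38232642; 8.61 and 6.46 CPM against 1.36 and 2.9 CPM; 1.84, standard error 0.40, adjusted p 0.000419), where line 119 had 8.66 and 10.1 CPM and line 73 1.28 and 1.11 CPM. Towards line 113 it was at 367 kb (chr1:38263169-38263775; -1.12, standard error 0.42, adjusted p 0.0425), a call lost without any of the libraries of lines 112, 113 or 119. The 8 calls fell to 2 without line 113 replicate 1, to 4 without line 112 replicate 2 and to 5 without line 112 replicate 1 or without either replicate of line 119.

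Dlc1 (chr8:36567739-36953184, 385 kb) was mapped from its lower-coordinate end, since no start or strand was used for it. Its knockout-high regions ran from 12.9 to 345 kb. A pair of adjacent regions led: the one at 13.6 kb (chr8:36580986-36581605) had 20.0 and 14.5 CPM in line 112, 41.7 and 38.0 CPM in line 113, 11.4 and 9.45 CPM in line 119 and 2.3 and 1.94 CPM in line 73, and the one at 12.9 kb (chr8:36580386-36580952) had 10.2 to 21.7 CPM in the knockout libraries and 0.512 to 4.14 CPM in the wild-type libraries. The region at 13.6 kb was higher in line 113 than in line 112 (log2 difference -1.19, standard error 0.22, adjusted p 4.69e-05), and its knockout-high call was lost without line 112 replicate 1 or without either replicate of line 119. Its neighbour at 12.9 kb differed between the lines by -0.66 (standard error 0.26, adjusted p 0.053). At 290 kb (chr8:36857460-36858385) the replicates of line 112 disagreed, with 20.9 and 5.85 CPM, beside 18.8 and 22.5 CPM in line 113 and 6.72 and 6.42 CPM in line 119; without line 112 replicate 1 the smallest of its 4 pair differences was -0.17, and its call was also lost without either replicate of line 119. The strongest region of Dlc1 that was not knockout-high was open in every line, at 46.2 kb (chr8:36613535-36614245), with 34.2 and 25.2 CPM in line 112, 55.0 and 55.4 CPM in line 113, 26.5 and 28.5 CPM in line 119 and 52.2 and 55.3 CPM in line 73. Lines 113 and 73 had similar levels, above those of lines 112 and 119 (line 112 minus line 113, -0.88, standard error 0.18, adjusted p 0.000188; line 119 minus line 73, -0.97, standard error 0.17, adjusted p 3.82e-06). All 15 regions of Dlc1 called between lines 112 and 113 were higher in line 113, 9 of them knockout-high; the largest was at 257 kb, at -1.63 (standard error 0.46, adjusted p 0.00675), a call lost without line 112 replicate 2 or line 113 replicate 1. Without line 113 replicate 1 the count of calls was 8, and without line 112 replicate 1 the knockout-high count fell from 18 to 9.

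Nav1 (chr1:135434580-135688350, minus strand, 254 kb) was the smallest of the 7 genes and had the tightest group of regions. Of its 14 knockout-high regions 9 lay between 15.7 and 62.3 kb from the gene's 5′ end, all before the only Nav1 start in the promoter table, at 103 kb. The region at 28.6 kb (chr1:135659009-135660554) had the highest mean of the knockout lines among all 111, at 48.6 and 33.5 CPM in line 112 and 60.3 and 53.5 CPM in line 113, and it was also open in the wild-type lines, at 18.6 and 15.5 CPM in line 119 and 21.3 and 28.3 CPM in line 73. It was no longer knockout-high without line 112 replicate 1 or line 73 replicate 1. The region at 62.3 kb (chr1:135625404-135626699) separated line 73 from the rest, with 37.2 and 26.5 CPM in line 112, 39.9 and 41.4 CPM in line 113, 15.4 and 18.6 CPM in line 119 and 5.38 and 3.61 CPM in line 73; its call was lost without line 119 replicate 1. At 22.7 kb the knockout libraries had 16.0 to 27.9 CPM and the wild-type libraries 1.94 to 6.98 CPM. The strongest other region, at 18.1 kb (chr1:135669738-135670842), had 18.1 to 31.7 CPM in the knockout lines and line 73 and was lower in line 119, at 6.07 and 8.78 CPM. Lines 112 and 113 differed in 10 of 48 regions, 4 higher in line 112 and 6 in line 113; the 2 knockout-high regions among them were both higher in line 113. The extremes lay at 12.5 kb (chr1:135675413-135676272; 8.84 and 8.93 CPM against 2.04 and 2.9 CPM; 1.84, standard error 0.37, adjusted p 0.000169) and at 213 kb (chr1:135475140-135475876; 3.26 and 3.08 CPM against 13.6 and 13.3 CPM; -2.07, standard error 0.33, adjusted p 3.98e-06). At the latter, the wild-type lines were as low as line 112, at 1.39 to 3.36 CPM. Without line 113 replicate 1 the 10 calls fell to 5.

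Etl4 (chr2:19910207-20810535, plus strand, 900 kb) was the largest gene, and 39 of its 51 tested regions lay in the 3′ 50% of its body. After 3 knockout-high regions at 152 to 175 kb came a stretch of 200 kb without one, and 11 of its 18 lay from 609 kb on, around and beyond the third start in the promoter table. The region at 616 kb (chr2:20525810-20526703) had 24.2 and 10.8 CPM in line 112, 18.3 and 24.4 CPM in line 113 and 2.84 to 3.38 CPM in the wild-type libraries. The region at 659 kb (chr2:20569027-20569595) had 6.75 and 5.85 CPM in line 112 and 16.5 and 20.1 CPM in line 113, with 0.278 to 2.36 CPM in the wild-type libraries (line 112 minus line 113, -1.52, standard error 0.29, adjusted p 7.28e-05). A knockout-high call itself sets the knockout lines above the wild-type lines, so the separation in these regions is a description. The strongest region that was not knockout-high, at 756 kb (chr2:20665306-20666528), was open throughout, at 11.4 to 18.3 CPM in the knockout libraries and 5.74 to 13.1 CPM in the wild-type libraries. All 16 Etl4 regions called between lines 112 and 113 were higher in line 113, 9 of them knockout-high. The largest, at 381 kb (chr2:20290966-20291885), lay 1053 bp from the first start in the promoter table and was not knockout-high: it had 5.35 and 7.39 CPM in line 112, 31.9 and 19.1 CPM in line 113, 3.88 and 5.4 CPM in line 119 and 0.768 and 1.39 CPM in line 73 (-2.03, standard error 0.29, adjusted p 5.05e-07). In Etl4, 15 regions were higher in line 113 than in each of the other 3 lines, against 7.26% of all tested regions, and 0 were higher in line 112 than in each of the others. Only 6 of the 15 were not knockout-high. The rest were above both wild-type lines by the call that chose the gene, so the 15 are a description. Without line 113 replicate 1 the 16 calls fell to 8, and without line 112 replicate 2 to 9.

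Dgki (chr6:36837381-37300955, minus strand, 464 kb) had knockout-high regions from 1.16 to 443 kb, with 10 up to 284 kb and 4 from 397 kb on. Its strongest, at 97.1 kb (chr6:37203346-37204443), had 46.8 and 37.2 CPM in line 112, 33.1 and 30.7 CPM in line 113, 23.5 and 22.5 CPM in line 119 and 2.56 and 3.06 CPM in line 73. Line 119 was thus nearer to the knockout lines than to line 73 (line 119 minus line 73, 3.03, standard error 0.29, adjusted p 5.06e-13), and the knockout-high call was lost without any of the libraries of lines 113 or 119. That call was also lost with DESeq2 size factors, with total counts and with DESeq2's Wald test. The smallest pair difference of the region, 0.471, was 0.418 with DESeq2 size factors and 0.264 with total counts. It came to -0.00399 when the median of each chromosome was removed. The region at 88.5 kb (chr6:37211765-37213221) separated the genotypes further, with 24.0 and 23.7 CPM in line 112, 24.7 and 18.4 CPM in line 113 and 2.05 to 3.61 CPM in the wild-type libraries. Close to the region at 97.1 kb, at 100 kb (chr6:37200695-37201250), the order was another: 4.42 and 5.85 CPM in line 112, 0.453 and 0.968 CPM in line 113, 5.43 and 7.09 CPM in line 119 and 1.28 and 3.06 CPM in line 73. The knockout lines differed there by 2.80 (standard error 0.56, adjusted p 0.000127). The region at 397 kb (chr6:36903227-36903791) had 16.6 to 22.8 CPM in the knockout libraries, 9.56 and 10.6 CPM in line 119 and 3.07 and 3.61 CPM in line 73, and was no longer knockout-high without line 119 replicate 1 or with chromosome medians removed. The strongest region that was not knockout-high, at 425 kb (chr6:36875790-36876824), was open in all lines, at 8.62 to 21.0 CPM. All 17 regions of Dgki called between lines 112 and 113 were higher in line 112, and 1 of the 17 was knockout-high. Without line 113 replicate 1 the count was 10, and the knockout-high count fell from 14 to 8 without line 119 replicate 1.

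Pde1c (chr6:56069798-56652510, minus strand, 583 kb), on the same chromosome as Dgki, held a group of 9 knockout-high regions from 80.2 to 171 kb, 1 at 212 kb and a group of 5 from 311 to 369 kb. The RefSeq starts at 283 and 290 kb lay in the gap between these groups. The region at 128 kb (chr6:56523949-56524637) had 43.1 and 26.5 CPM in line 112, 33.3 and 25.4 CPM in line 113, 2.2 and 2.87 CPM in line 119 and 1.54 and 1.11 CPM in line 73, a log2 difference of 4.05 over the line sums (standard error 0.82, as a description). At 83.6 kb (chr6:56568541-56569363) the knockout libraries had 24.0 to 32.1 CPM, line 119 had 9.95 and 7.43 CPM and line 73 had 4.61 and 1.94 CPM. At 80.2 kb the knockout libraries had 13.9 to 20.6 CPM and the wild-type libraries 1.02 to 2.2 CPM. Lines 112 and 113 did not differ past the threshold in any of these 3 regions (adjusted p 0.419, 0.544 and 0.603). Across the gene, though, they differed in 27 of 57 regions, 26 higher in line 112. The strongest region that was not knockout-high, at 279 kb (chr6:56373201-56374141), had 40.5 and 22.8 CPM in line 112, 11.3 and 15.7 CPM in line 113, 10.3 and 10.1 CPM in line 119 and 6.66 and 7.78 CPM in line 73 (line 112 minus line 113, 1.25, standard error 0.25, adjusted p 0.000121). The region at 136 kb was the 1 exception, higher in line 113 at 22.7 and 14.0 CPM against 9.54 and 11.1 CPM (-0.84, standard error 0.28, adjusted p 0.0206), a call lost without line 112 replicate 1, line 113 replicate 1 or either replicate of line 119. The largest difference towards line 112, at 216 kb (chr6:56436268-56436768), was in a weak region with 1.86 and 2.77 CPM in line 112, 0.227 and 0.242 CPM in line 113, 0.517 and 0.169 CPM in line 119 and 3.84 and 3.33 CPM in line 73 (3.14, standard error 0.87, adjusted p 0.00541), a call lost without line 113 replicate 1. Without that library the 27 calls fell to 9, and without line 112 replicate 1 to 17.

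Ptprg (chr14:11553440-12242041, plus strand, 689 kb) had its main group late in the gene, with 5 knockout-high regions from 389 to 425 kb. The region at 398 kb (chr14:11950930-11951519) had 26.1 and 16.0 CPM in line 112, 22.9 and 26.9 CPM in line 113, 6.46 and 5.74 CPM in line 119 and 1.28 and 1.39 CPM in line 73. The region at 471 kb (chr14:12024189-12024817) had 17.7 and 11.1 CPM in line 112, 27.4 and 31.4 CPM in line 113 and 0.278 to 1.35 CPM in the wild-type libraries. It had the largest fitted difference of the regions named here, 4.50 over the line sums (standard error 0.96, as a description), and line 113 was above line 112 (-1.01, standard error 0.25, adjusted p 0.0017). The region at 417 kb also differed in that direction (-0.86, standard error 0.27, adjusted p 0.0132). The strongest other region, at 59.6 kb (chr14:11612382-11613622), was open mainly in line 73, with 32.3 and 33.6 CPM against 2.19 and 4.78 CPM in line 119 and 6.46 to 16.1 CPM in the knockout libraries (line 119 minus line 73, -3.18, standard error 0.28, adjusted p 2.03e-14). Near the first start, neighbouring regions at 7.6 and 9.58 kb differed between the knockout lines in opposite directions. The former (chr14:11560640-11561438) had 3.72 and 3.39 CPM in line 112 and 13.1 and 10.6 CPM in line 113 (-1.73, standard error 0.35, adjusted p 0.000156). The latter (chr14:11562773-11563273) had 7.21 and 4.31 CPM in line 112 and 1.59 and 1.69 CPM in line 113 (1.83, standard error 0.45, adjusted p 0.00172), a call lost without line 112 replicate 1. Of 15 Ptprg regions called between these lines 14 were higher in line 113. Without line 112 replicate 2 the 15 calls fell to 6 and without line 113 replicate 1 to 9, and without line 112 replicate 1 the knockout-high count fell from 13 to 8.

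**Figure D2:**
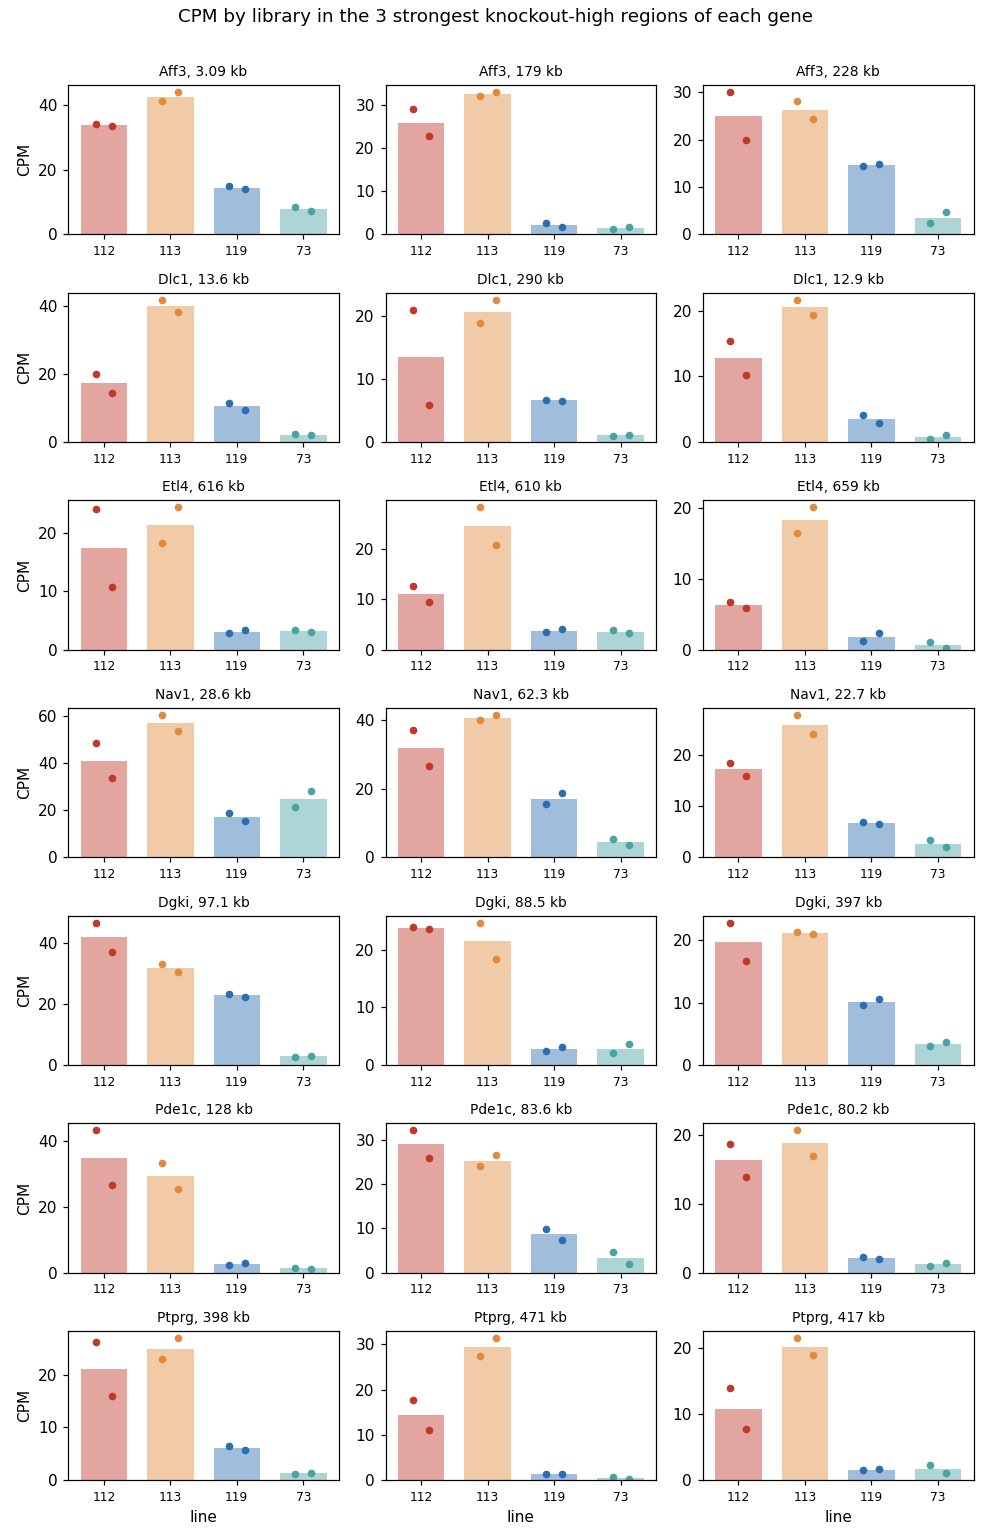
CPM (vertical axis) in lines 112, 113, 119 and 73 (horizontal axis) for the 3 knockout-high regions of each gene with the highest knockout mean; points are the 2 libraries of a line and bars their mean. Line 119 was close to line 73 in some regions (Pde1c at 128 kb, 2.2 and 2.87 CPM) and nearer to the knockout lines in others (Dgki at 97.1 kb, 23.5 and 22.5 CPM).

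The comparison of lines 112 and 113 was not used to choose the genes, although a region that is high in both cannot be low in either. Over all tested regions 23.8% were called between them, 8.24% higher in line 112 and 15.6% higher in line 113. In the 7 genes 108 of 355 (30.4%) were called, 53 higher in line 112 and 55 in line 113. By gene the directions went apart: in Dlc1, Etl4 and Ptprg 45 of 46 calls were higher in line 113, in Dgki and Pde1c 43 of 44 were higher in line 112, and Aff3 (5 and 3) and Nav1 (4 and 6) were mixed and changed their majority with the scaling. Among the 111 knockout-high regions 35 were called, 30 of them higher in line 113 (27.0%) and 5 higher in line 112 (4.5%), close to the 25.3% and 3.23% of knockout-high regions outside the 7 genes. The median difference, line 112 minus line 113, over the tested regions of a gene was 0.06 in Aff3, -0.48 in Dlc1, -0.62 in Etl4, -0.20 in Nav1, 0.94 in Dgki, 0.99 in Pde1c and -0.62 in Ptprg, against 0.08 over all tested regions.

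**Figure D3:**
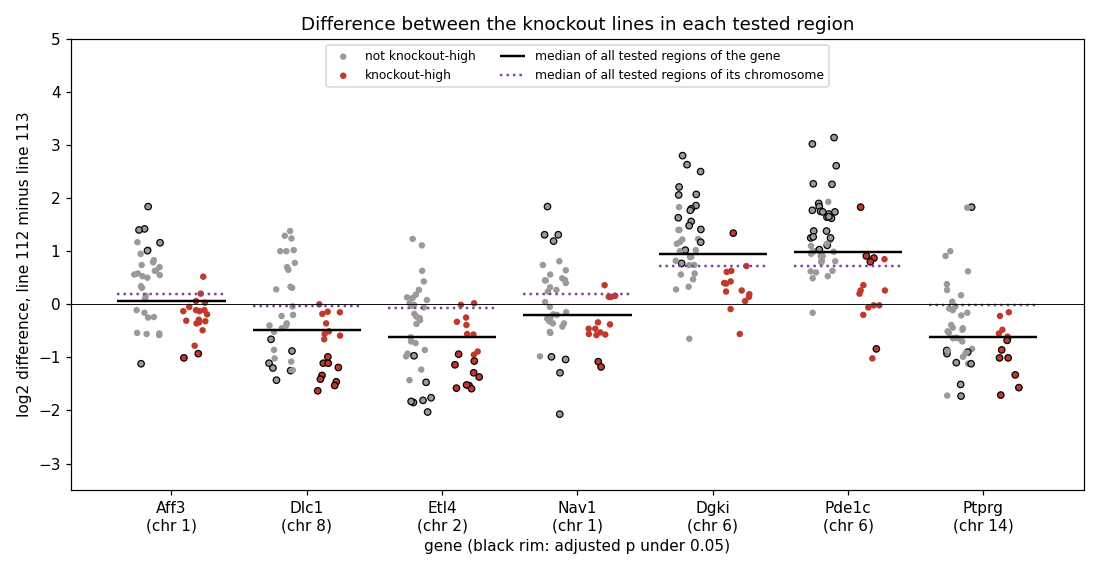
Log2 difference, line 112 minus line 113 (vertical axis), of every tested region by gene (horizontal axis), with knockout-high regions in red, regions past the threshold rimmed in black, the gene's median as a solid line and the median of its chromosome as a dotted line. Dlc1, Etl4 and Ptprg lie below their chromosome's median, and Dgki and Pde1c lie 0.94 and 0.99 above 0 on a chromosome whose median is 0.72.

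Chromosome 6, which carries Dgki and Pde1c, was higher in line 112 as a whole. Its median log2 ratio to the mean of the lines was 0.55 in line 112 against -0.17 in its fellow knockout line 113, and it was -0.33 (line 119) and -0.13 (line 73) in the wild type, a difference of 0.72 between the knockout lines; on the chromosomes of the other 5 genes that difference was -0.07 to 0.19. With each line's chromosome median removed, the calls in Dgki went from 17 higher in line 112 and 0 in line 113 to 5 and 3, and those in Pde1c from 26 and 1 to 4 and 3, with median differences of 0.23 and 0.28. The line 113 direction of Dlc1 (0 and 14), Etl4 (0 and 15) and Ptprg (1 and 13) held under that scaling. Over the 7 genes the split then became 13 higher in line 112 and 63 in line 113 (21.4% called, against 21.3% of all tested regions), so the share called lay at the background. Nav1 then had 2 regions higher in line 112 and 10 in line 113. The knockout-high count was 99 after this removal, 10 of them in Dgki and 12 in Pde1c.

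The direction of the split depended on the scaling of the libraries. With total counts in place of TMM the median of all tested regions moved from 0.08 to 0.41, calls over all regions went from 11566 higher in line 112 and 21856 in line 113 to 22079 and 12126, and those in the 7 genes from 53 and 55 to 87 and 30. The gene medians moved with it, to 0.39 in Aff3, -0.16 in Dlc1, -0.31 in Etl4, 0.13 in Nav1, 1.27 in Dgki, 1.32 in Pde1c and -0.29 in Ptprg, so that Dlc1, Etl4, Nav1 and Ptprg remained below the median of all regions and Dgki and Pde1c above it. By direction, Dlc1 had 3 regions higher in line 112 and 9 in line 113, Etl4 1 and 10, Ptprg 3 and 6, Aff3 8 and 1, Nav1 6 and 4, Dgki 29 and 0 and Pde1c 37 and 0. Without line 113 replicate 1 the calls in the 7 genes fell from 108 to 51, 23 higher in line 112.

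Region by region, levels in the knockout lines were correlated within each gene. The Pearson correlation of log2 CPM between lines 112 and 113 was 0.90 in Aff3, 0.87 in Dlc1 and Pde1c, 0.86 in Dgki, 0.82 in Ptprg, 0.81 in Nav1 and 0.80 in Etl4, each over the 48 to 57 tested regions of the gene. Pooled over the 355 regions it was 0.74 (Spearman 0.70), and over all tested regions 0.85. The opposite offsets of the genes enter the pooled value. Between replicate libraries it was 0.83 in line 112 and 0.92 in line 113 over the same regions, and between the wild-type lines it was 0.52. These regions share libraries and depth and are not independent, so the correlations are descriptions. The genes were chosen for regions high in both knockout lines, which can itself raise their correlation. Over the 111 knockout-high regions the correlation was 0.80 between lines 112 and 113. There it was 0.83 between lines 112 and 119 and 0.72 between lines 113 and 119. Over the other 244 tested regions of the genes these pairs had 0.63, 0.58 and 0.44. A likeness apart from that choice was not tested.

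**Figure D4:**
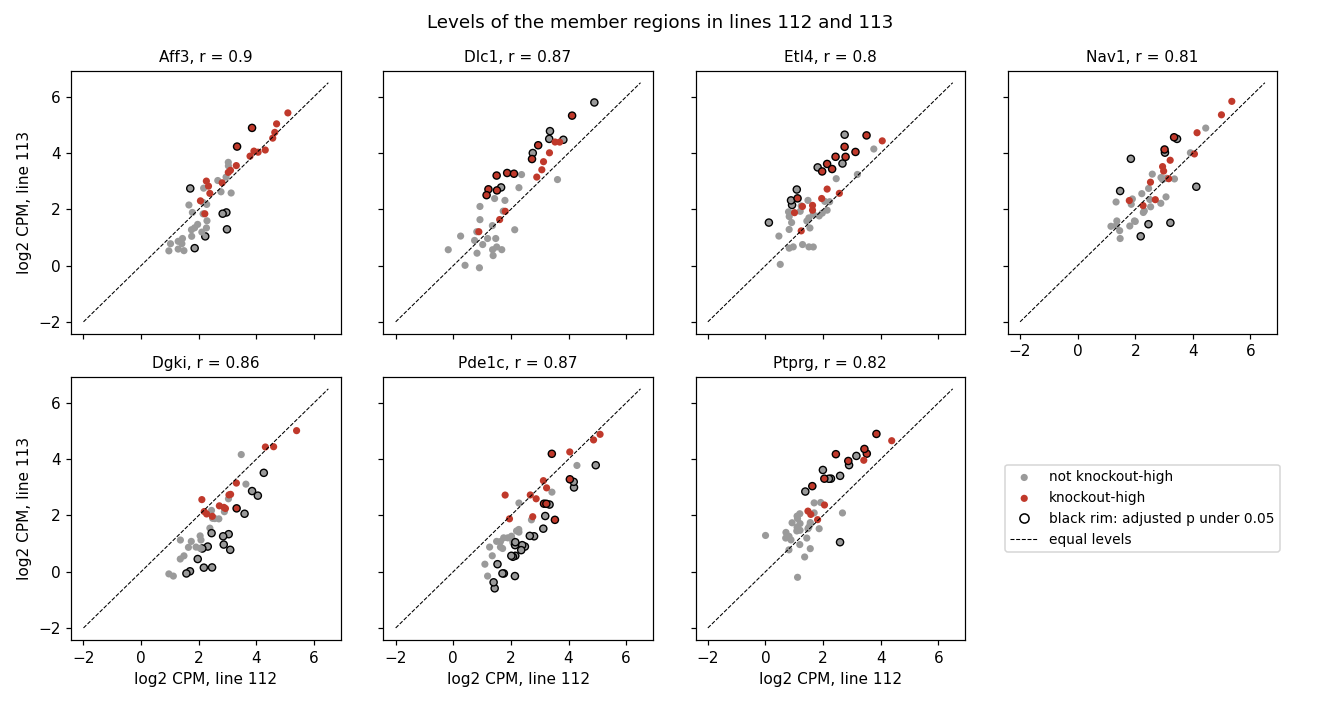
Mean log2 CPM of each tested region in line 112 (horizontal axis) and line 113 (vertical axis) by gene, with knockout-high regions in red, regions past the threshold rimmed in black and equal levels as a dashed line. Within each gene the points follow the diagonal (r from 0.80 to 0.90), shifted above it in Dlc1, Etl4 and Ptprg and below it in Dgki and Pde1c.

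Set beside the wild-type lines, line 112 was higher than both in 146 of the 355 regions and line 113 in 142, against 10.8% and 16.4% of all tested regions. These counts share the wild-type libraries and each includes the 111 knockout-high regions for which the genes were chosen, so they are a description. Dgki had 23 such regions for line 112 and 14 for line 113, and Pde1c 30 and 15; Etl4 had 19 and 28, Ptprg 15 and 22, Dlc1 19 and 23, Nav1 15 and 17, and Aff3 25 and 23. Regions higher in line 113 than in each other line numbered 46 (15 in Etl4, 12 in Dlc1, 11 in Ptprg), against 7.26% of all tested regions. Only 16 of the 46 were not knockout-high. The rest were already above both wild-type lines by the call for which the genes were chosen, so the 46 are a description. Regions higher in line 112 than in each other line numbered 22, 12 of them in Pde1c and 7 in Dgki, against 1.76% of all tested regions. Of the 22, 17 were not knockout-high. Pde1c and Dgki lie on chromosome 6, which was higher in line 112 as a whole (median difference from line 113, 0.72). Their counts cannot be told apart from that offset here.

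Lines 119 and 73 differed from each other in 154 of the 355 regions (43.4%), 75 higher in line 119 and 79 in line 73, against 56.9% of all tested regions, 27.5% and 29.4% by direction. Among the 111 knockout-high regions 27 were called (24.3%), 22 of them higher in line 119, beside 24.1% of knockout-high regions elsewhere. Regions that must be low in both wild-type lines leave less room for a difference. By gene Aff3 had 20 regions higher in line 119 and 1 in line 73, and Ptprg had 2 and 19. Both splits kept their majority with DESeq2 size factors, total counts or chromosome medians removed and without any one library. Nav1 had 10 and 16, Dlc1 9 and 13, Etl4 13 and 5, Dgki 9 and 13 and Pde1c 12 and 12. The majority in Dgki turned to 11 and 7 with total counts or with chromosome medians removed and to 11 and 9 without line 112 replicate 2. It was 6 and 6 without replicate 1 of line 119 or of line 73, 8 and 7 without line 119 replicate 2 and 6 and 8 without line 73 replicate 2. Etl4 had 7 and 5 with chromosome medians removed, 14 and 1 without line 119 replicate 1, 13 and 3 without line 119 replicate 2, 7 and 4 without line 73 replicate 1 and 10 and 2 without line 73 replicate 2. Pde1c had 7 and 10 without line 73 replicate 2. In Aff3, 12 regions were lower in line 73 than in each other line, against 10.2% of all tested regions, and in Nav1 10 and in Ptprg 8 were lower in line 119 than in each other line, against 4.86%. Of these, 7 in Aff3, 3 in Nav1 and 0 in Ptprg were knockout-high. A knockout-high region is below both knockout lines in each wild-type line by definition, so the Aff3 and Nav1 counts follow in part from the choice of genes.

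**Figure D5:**
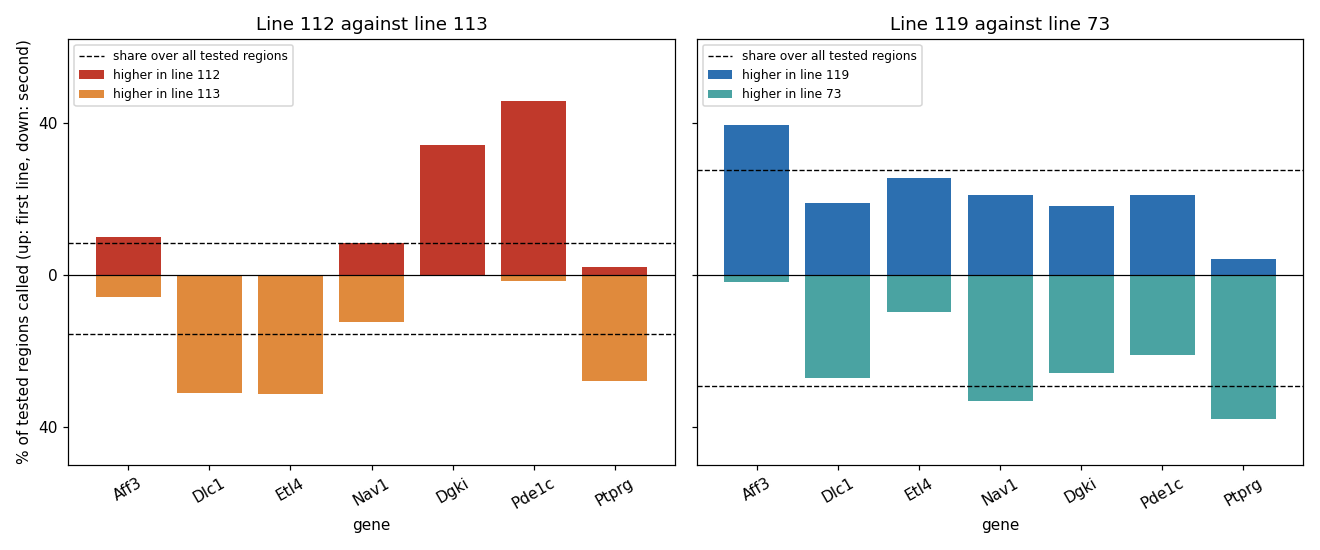
Share of the tested regions of each gene (vertical axis, %) called between lines 112 and 113 (left) and between lines 119 and 73 (right), upward where the first line is higher and downward where the second is; dashed lines are the shares over all tested regions. Dlc1, Etl4 and Ptprg point to line 113 and Dgki and Pde1c to line 112, and in the wild-type pair Aff3 points to line 119 (20 of 51 regions) and Ptprg to line 73 (19 of 50).

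With the line as the unit, 2 knockout against 2 wild-type lines, 0 of the 355 regions passed in edgeR's quasi-likelihood test (smallest adjusted p 0.143), as did 0 of all 140329. At an unadjusted p under 0.05 there were 129, beside 16.9% of all tested regions, and 98 of the 129 were knockout-high. DESeq2's Wald test on the same sums called 51 of the 355 and 6986 of all regions. The edgeR count was 6 without line 112 replicate 1, beside 617 over all regions. This is the same contrast that chose the genes and is given only to state what the number of lines allows.

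The median length of the knockout-high regions was 620 bp, against 619 bp for those outside the 7 genes and 578 bp for the other tested regions of the genes. A peak call of at least 1 library overlapped 101 of the 111 (91.0%), beside 90.1% of knockout-high regions elsewhere and 89.6% of all tested regions. The calls came from line 113 at 101 regions, line 112 at 62, line 119 at 29 and line 73 at 4. Peaks were called per library and depth differed between libraries, so these numbers do not compare the lines. Their median level was 7.38 CPM for line 112 and 9.34 CPM for line 113, beside 1.07 CPM for each wild-type line (6.26, 8.55, 1.45 and 1.17 CPM for lines 112, 113, 119 and 73 in knockout-high regions elsewhere), from a median of 163 counts over the 8 libraries (33 to 1226).

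The 12 family relatives examined held 30 knockout-high regions of 293 tested (10.2%, against 7.64% of all tested regions) and 16 knockout-low. Stard8, a relative of Dlc1, had 7 of 12, while Stard13, of the same family, had 2 of 64 and 8 knockout-low. Stard8 and Aff2 lie on chromosome X, and their regions enter the total. Chromosome Y counts differed by genotype, so in these genes sex chromosome content cannot be told apart from it. Nav2 had 13 of 90 and Nav3 0 of 49. Aff1 had 3 of 27, Pde1a 1 of 20, Srcin1 1 of 9, Ptprz1 2 of 8 and Aff2 1 of 4, and Aff4, Dgkz and Pde1b had none of 1, 6 and 3.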

How the data were processed

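The deposited table holds raw counts for 148664 regions of 501 to 3708 bp in 8 libraries, as whole numbers, with 0 columns of other samples. The authors' peak lists, 1 per library, list a score, an enrichment ratio, and −log10 of p and of q per peak as the authors deposited them; only peak positions were used here (at least 1 bp of overlap, bedtools 2.31.1), which overlapped 130595 regions. Per the submitters' processing notes the tools were Bowtie2 2.2.4, Picard 1.118 and MACS2 2.1.1.20160309 and the build mm10 (GRCm38). The treatment of duplicates, a shift for the transposase and whether reads or fragments were counted are not given in the sources used here, so counting error may be larger than it appears. Gene positions came from the RefSeq table of GRCm38.p6, and exons and introns were not told apart.

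Regions were filtered with filterByExpr (minimum count 10, total 15), which kept 140329. Lines were compared in 1 fit of 8 libraries with TMM sizes (edgeR 4.0.16, robust glmQLFit and glmQLFTest, two-sided, R 4.3.3), Benjamini-Hochberg over all tested regions, threshold 0.05; standard errors are the log2 difference over the square root of F. The p-values measure the spread between libraries of a line. The lines-as-units test used 4 line sums. Log2 CPM used a prior count of 2. The 7 genes and all lists were chosen with earlier results of these data known. Regions named in each gene were the 3 knockout-high regions with the highest knockout mean, the strongest region at a gene end, the strongest other region and the largest differences between lines 112 and 113. On simulated data (30000 regions, 200 changed) the test of line 112 against line 113 recovered 18.5% of 2-fold changes with 0 false among 37 calls and 89% of 4-fold changes with 4 false among 182. Alternatives were other scalings, DESeq2 1.42.0, other filters, regions with a peak call, other gene limits, a replicate block and leaving out each library.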

Additional observations from a re-analysis of the deposited data

How the results depend on the processing

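With DESeq2's Wald test the calls between lines 112 and 113 fell to 16472 over all regions and 44 in the 7 genes, those between lines 119 and 73 to 102 and the knockout-high regions to 70, and the test with lines as units rose to 51. Requiring a mean of 50 counts left 35 of the 355 regions, of which 13 were called between lines 112 and 113, 24 between lines 119 and 73 and 15 knockout-high, with 7469 calls between lines 112 and 113 over all regions; fewer regions were tested there. Among regions with a peak call, 3 of the 294 in the 7 genes passed with lines as units, as did 205 of all 125675.

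Leaving out each library in turn gave 17228 to 33080 calls between lines 112 and 113 over all regions and 51 to 103 in the 7 genes, with the lowest count without line 113 replicate 1, 116 to 159 between lines 119 and 73, 86 to 103 knockout-high regions, and 0 to 6 regions with lines as units. The smallest pair difference of the Dlc1 region at 290 kb ran from -0.17 without line 112 replicate 1 to 1.54 without line 112 replicate 2. That of the Dgki region at 97.1 kb was -0.00399 with the chromosome medians removed and -0.0626 with a mean of 50 counts; the cause of the latter was not tested. The other alternatives for these 5 counts stayed within 1.5 times of the reported values. Of 328 values for the named knockout-high regions 301 kept their call, as did 144 of 165 for the regions named between lines 112 and 113.

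Replicate numbers did not pair the libraries (correlations of same-numbered deviations -0.0367 to 0.00386). With the replicate block 29.9% of the 355 regions were called between lines 112 and 113 and 30.7% were knockout-high. In the simulation, where 200 of 30000 regions changed, the test recovered 18.5% of 2-fold changes. In the data 23.8% of tested regions were called between lines 112 and 113. The adjusted p depends on that share, so 18.5% is not the recovery in the data. A difference of that size can still go uncalled.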
